A study of Mus musculus with 3 samples.

Results

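The genes of the TNF ligand and receptor superfamilies were examined for open chromatin in a mouse myeloid progenitor line before and after loss of NIPBL. The set held 42 of the 21887 protein-coding genes on chromosomes 1 to 19, X and Y. It was chosen by symbol: every gene starting with Tnfrsf or Tnfsf, with Tnf, Lta, Ltb, Ltbr, Fas, Fasl, Cd40, Cd40lg, Cd27 and Cd70 added. It contained 18 ligands and 24 receptors, 1 of the ligand entries (Tnfsfm13) being the Tnfsf12 to Tnfsf13 readthrough gene. The locus of a gene was taken as its span plus 10 kb of flank at either side.

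All 3 libraries came from the ECOMG line, whose cells were kept in GM-CSF and β-estradiol, and all carried the FKBP12F36V_NIPBL genotype, a degron fused to the factor that loads cohesin on DNA. dTAG, a small molecule that sends the tagged protein to the proteasome, was absent at 0 h and present at 6 h and at 72 h. Open chromatin was read out by ATAC-seq, whose transposase inserts adapters where DNA is not packed in nucleosomes, on 50000 cells per library with an Active Motif kit. Each time point was 1 library of 1 cell line, with no library at 6 h or 72 h that lacked dTAG, so dTAG, time in culture and library cannot be told apart. No difference below has a replicate check, no test across time points was possible, and intervals cover counting error only.

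TNF ligands are mostly membrane-bound trimers on immune cells that can be shed as cytokines. Their receptors fall into those with a cytoplasmic death domain, which can recruit FADD or TRADD and lead to caspase-8 activation or NF-κB signalling, those that bind TRAF adaptors and signal chiefly to NF-κB and MAP kinases, and decoys that bind ligand without signalling. In myeloid cells TNF and its receptors drive inflammatory responses, while other members serve lymphocyte costimulation and B cell survival. Cohesin shapes contacts between such genes and distant regulatory elements.

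The 250 bases before the start of 6 members are shown because the start of each is the outer end of its gene span and because some of these promoters had a region in every list (Tnf, Tnfsf14, Tnfrsf1a, Tnfrsf1b) and others did not (Ltb, Tnfsf18). Sequences are from RefSeq (GRCm38.p6, the assembly of mm10), 5′ to 3′ on the strand of the gene, with the matches to the 9 motifs described later in capitals. They cover chr17:35202008-35202257 (minus strand, Tnf), chr17:35194257-35194506 (plus strand, Ltb), chr17:57194182-57194431 (minus strand, Tnfsf14), chr1:161494407-161494656 (plus strand, Tnfsf18), chr6:125349473-125349722 (plus strand, Tnfrsf1a) and chr4:145246871-145247120 (minus strand, Tnfrsf1b).
Tnf: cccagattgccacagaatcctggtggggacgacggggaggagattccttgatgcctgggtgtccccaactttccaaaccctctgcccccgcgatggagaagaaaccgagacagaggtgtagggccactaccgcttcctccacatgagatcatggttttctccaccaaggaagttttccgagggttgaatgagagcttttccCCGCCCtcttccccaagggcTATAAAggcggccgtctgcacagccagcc
Ltb: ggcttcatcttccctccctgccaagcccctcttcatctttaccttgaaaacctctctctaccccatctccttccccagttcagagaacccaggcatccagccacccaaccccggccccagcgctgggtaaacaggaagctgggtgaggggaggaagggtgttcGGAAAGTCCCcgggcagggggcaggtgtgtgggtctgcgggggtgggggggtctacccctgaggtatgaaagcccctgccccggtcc
Tnfsf14: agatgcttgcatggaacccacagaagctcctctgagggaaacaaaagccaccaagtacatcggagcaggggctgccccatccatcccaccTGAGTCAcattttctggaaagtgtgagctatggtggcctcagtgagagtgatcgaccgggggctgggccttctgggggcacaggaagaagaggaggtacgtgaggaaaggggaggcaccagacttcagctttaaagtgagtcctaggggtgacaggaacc
Tnfsf18: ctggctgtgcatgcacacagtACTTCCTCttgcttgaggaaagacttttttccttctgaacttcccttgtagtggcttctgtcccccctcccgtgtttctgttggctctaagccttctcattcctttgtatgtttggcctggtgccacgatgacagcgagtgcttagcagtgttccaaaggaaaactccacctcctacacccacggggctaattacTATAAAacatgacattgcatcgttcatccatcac
Tnfrsf1a: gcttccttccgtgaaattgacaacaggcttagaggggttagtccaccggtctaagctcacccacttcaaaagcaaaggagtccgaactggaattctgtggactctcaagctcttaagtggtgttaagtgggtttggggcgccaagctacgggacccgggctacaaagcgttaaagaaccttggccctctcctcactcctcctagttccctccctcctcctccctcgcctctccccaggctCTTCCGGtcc
Tnfrsf1b: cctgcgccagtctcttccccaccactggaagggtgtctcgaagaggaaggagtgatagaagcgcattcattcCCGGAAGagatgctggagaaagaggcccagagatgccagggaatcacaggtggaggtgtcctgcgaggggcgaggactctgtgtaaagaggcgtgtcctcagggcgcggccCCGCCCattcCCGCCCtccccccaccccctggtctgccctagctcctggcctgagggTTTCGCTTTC
The Tnf sequence holds a GC box match whose first base is at −49 from the start and a TATA box match at −29. The Ltb sequence holds an NF-κB match at −87, the Tnfsf14 sequence an AP-1 match at −160, and the Tnfsf18 sequence a PU.1 match at −229 and a TATA box match at −34. The Tnfrsf1a sequence has an ETS match at −10. The Tnfrsf1b sequence has an ETS match at −178, GC box matches at −67 and −57 and an IRF/ISRE match at −10.

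The deposited lists held 182233, 178055 and 145044 accessible regions at 0 h, 6 h and 72 h, with median lengths of 130 bp, 135 bp and 153 bp. Each region has a fold, the ratio of its summit to the peak caller's background, whose spacing gives the fragments at the summit. No list held a summit under 3 fragments, so a locus with no region can still hold signal under that level. A fold belongs to its own list, so folds are printed as listed and compared between times only as ranks. A stretch is the joined span of overlapping regions of the lists. Its rank, or percentile, is its place by fold within 1 library among the stretches that have a region in every list. Ties take their mean place. A gene-end rank is instead the place of a gene's highest region within 1 kb of its ends, among genes with such a region in every list. It is not on the scale of a stretch rank. Region counts of marker loci differed between times, as did those of coding loci in general. Of all coding loci with a region at 0 h or 72 h, 24.1% had more at 72 h and 61.1% had fewer. Their distinct regions at 72 h were 0.846 times those at 0 h. Summed regions in 12 myeloid progenitor marker loci were 173, 176 and 151 at 0 h, 6 h and 72 h. Of these loci 3 were higher at 72 h than at 0 h (Csf2rb, Gfi1 and Myb), 8 lower and Spi1 equal, near the shares of all coding loci. Gfi1 held 18, 21 and 25 regions and Kit 7, 5 and 0. All 6 mature neutrophil marker loci had more regions at 72 h than at 0 h (58 against 34 in sum). The 4 macrophage marker loci held 59 against 35, with 2 higher and 2 lower, of which Adgre1 held 42 against 13 and Marco 0 against 4. The 5 B cell marker loci held 24 at 72 h against 48 at 0 h, with Pax5 at 1 against 15, and 5 T cell marker loci held 25 against 29, with 2 higher and 3 lower and Cd3e at 1 against 5. The 4 erythroid marker loci held 17 against 22. The part of cell state in the results that follow was not tested.

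TNF superfamily loci held 334, 321 and 292 distinct regions at 0 h, 6 h and 72 h. The count at 6 h was 0.961 times that at 0 h (95% interval 0.822 to 1.12), and the count at 72 h was 0.874 times that at 0 h (0.745 to 1.03). Over all coding loci the ratios were 0.981 and 0.846. The background of the peak caller was 0.323, 0.327 and 0.281 fragments at 0 h, 6 h and 72 h. The part of library depth in the region counts was not tested. A median member had 2.54, 2.70 and 2.12 regions per 10 kb at 0 h, 6 h and 72 h, where the median coding gene had 1.32, 1.31 and 1.09. Adjacent members share regions, which these medians count for each, and 19 of the member loci hold another coding gene. The median over coding genes includes genes with no region. A region within 1 kb of a gene end was present for 33 of 42 members at each time (78.6%), where 64.2%, 63.8% and 59.1% of coding genes at 0 h, 6 h and 72 h had one.

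By locus, 8 members had more regions at 72 h than at 0 h (background 24.1%), 27 had fewer (64.3%, background 61.1%) and 7 had equal numbers, with a median difference of −1 region, also the median over all coding loci. A difference of at least 1.5 times and 3 regions at 72 h was met by 2 members with more (Tnfsf18 and Tnfrsf22; 4.76%, background 3.65%) and by 6 with fewer (Tnfrsf13c, Tnfrsf17, Tnfsf10, Tnfrsf25, Tnfrsf4 and Tnfsf13b; 14.3%, 95% interval 5.43% to 28.5%, background 20.2%). At 6 h the same size was met by 2 members with more than at 0 h (Tnfsf4 and Tnfrsf22; background 2.80%) and by 2 with fewer (Tnfrsf17 and Tnfsf13b; background 4.64%). These shares lie near those of all coding loci.

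**Figure D1:**
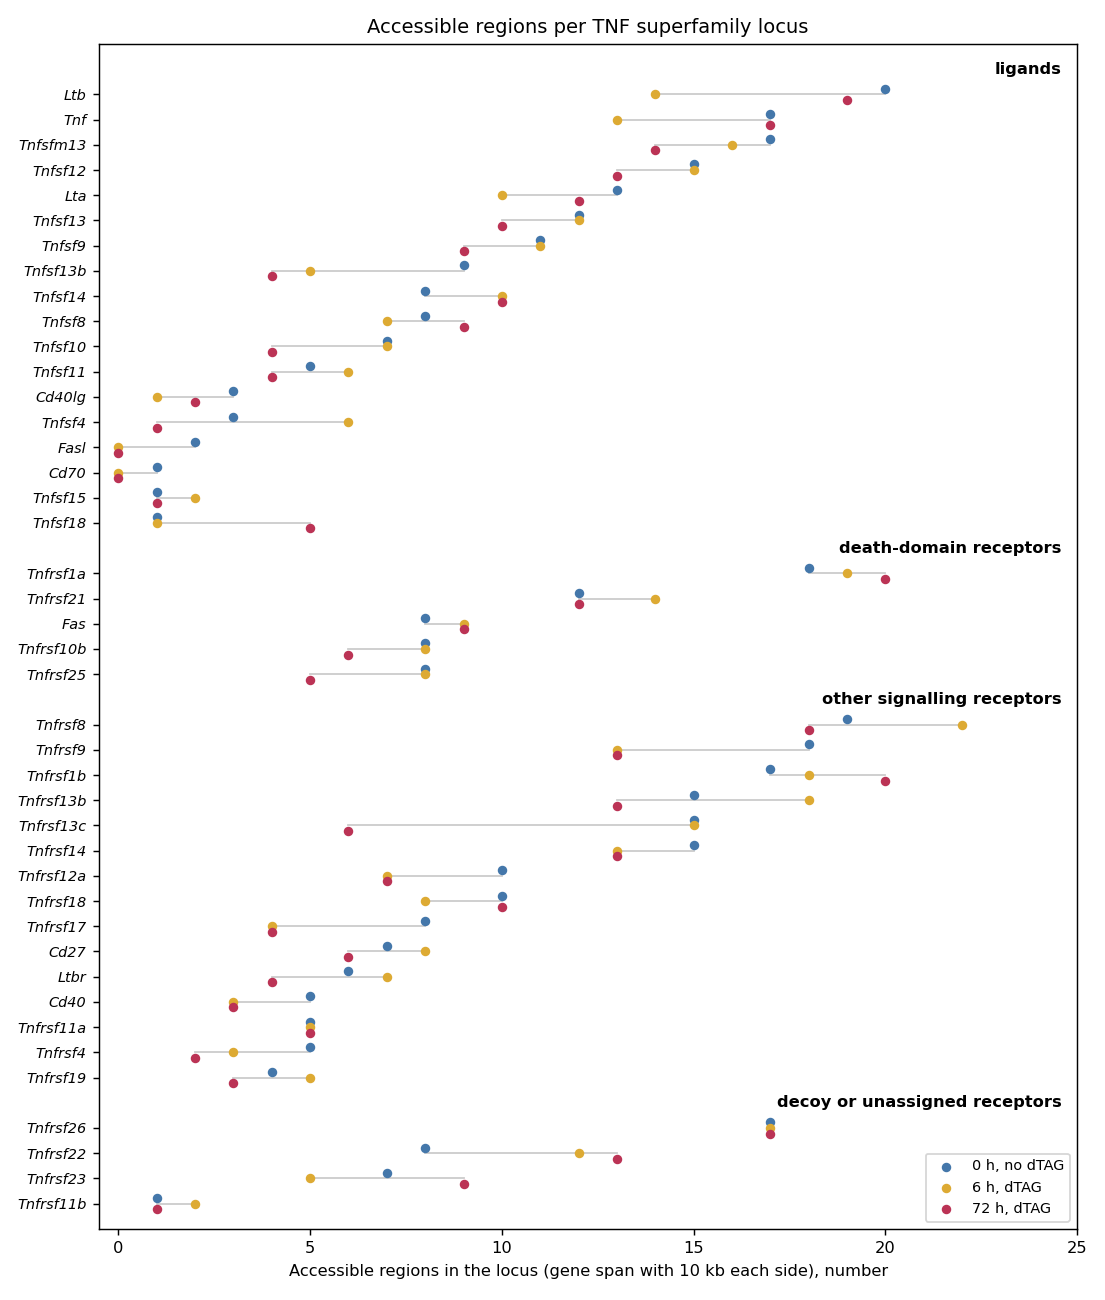
Number of accessible regions in each TNF superfamily locus (x axis) at 0 h, 6 h and 72 h, 1 point per library, by class of member; grey lines span the lowest and highest count. Most 72 h points lie to the left of the 0 h points (27 of 42 loci), Tnfrsf13c most clearly with 6 against 15, while Tnfsf18 and Tnfrsf22 lie to the right.

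Of the 186 strong 0 h regions in these loci (strong being the upper 50% of a list by −log10 q), 20 had no overlapping region at 72 h (10.8%, 95% interval 6.69% to 16.1%, background 13.3%). Of the 154 strong 72 h regions, 10 had none at 0 h (6.49%, 3.16% to 11.6%, background 6.86%). Against 6 h, 4 of the 186 were unmatched (2.15%, background 2.20%), and 1 of 169 strong 6 h regions was unmatched at 0 h (0.592%, background 1.60%). The 20 absent at 72 h were 2 each at Tnfrsf10b, Tnfsf9 and Tnfrsf9, 1 shared by Ltb, Tnf and Lta, and 1 each at Fas, Fasl, Tnfsf4, Tnfsf10, Tnfsf13b, Tnfsf14, Tnfrsf8, Tnfrsf12a, Tnfrsf14, Tnfrsf17, Tnfrsf19, Tnfrsf25 and Tnfrsf26. The −log10 q that made a region strong was 7.82, 9.25 and 13.0 at 0 h, 6 h and 72 h, so gained regions met a stricter limit than lost ones. Regions of any strength at 0 h were absent at 72 h in 102 of 334 cases (30.5%, 25.6% to 35.8%, background 36.7%). That interval treats regions of the same and adjacent loci as independent, and the comparison was 1 of several made. By position, 80.7% of 0 h regions at member ends, 80.2% inside members and 75.9% in flanks were overlapped at 6 h. At 72 h the shares were 80.7% at member ends (95% interval 70.6% to 88.6%), 69.8% inside members (58.9% to 79.2%) and 62.4% in flanks (53.9% to 70.4%). At ends of other coding genes they were 79.2% at 6 h and 70.8% at 72 h. Shares by position were not computed for all coding loci, so these have no background beside them.

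**Figure D2:**
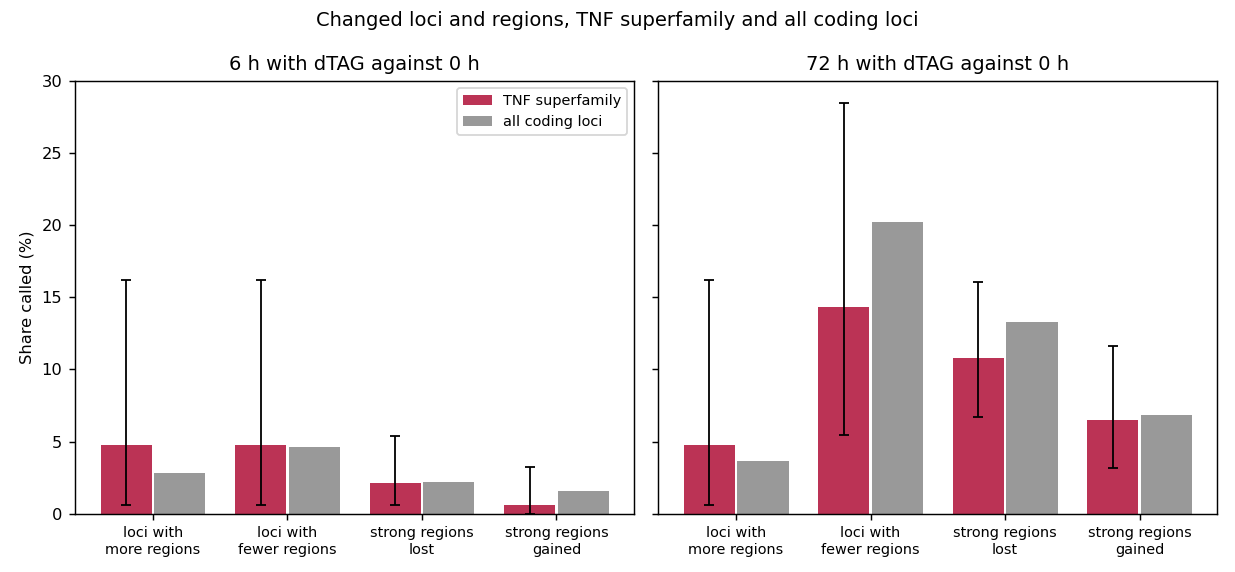
Share of TNF superfamily loci or regions (red, left bars, with exact 95% intervals) and of all coding loci or their regions (grey) that met each rule, at 6 h against 0 h and at 72 h against 0 h. For loci with fewer regions at 72 h the bars stand at 14.3% and 20.2%, and for the 4 rules drawn the superfamily intervals include the grey value at both times; the share of 0 h regions of any strength that were absent at 72 h is not drawn.

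Among the ligands, Tnf, Lta and Ltb lie side by side on chromosome 17 and share most of their regions. The Tnf locus, which encodes the inflammatory cytokine itself, had 17, 13 and 17 regions at 0 h, 6 h and 72 h, and the Lta locus, encoding lymphotoxin-α, had 13, 10 and 12. The Ltb locus, encoding the membrane anchor of lymphotoxin, had 20, 14 and 19. The highest region of the cluster lay inside Tnf, at chr17:35200242-35200829 at 0 h, and had folds of 116, 128 and 135 at 0 h, 6 h and 72 h. Among the 75396 stretches of coding loci with a region in every list, it stood at percentile 96.8, 96.2 and 95.5, close to the top at each time. The Tnf start, which the promoter sequence above adjoins, was covered at every time with folds of 26.5, 31.6 and 49.2, and its stretch stood at percentile 70.6, 73.1 and 79.6. The stretch before Ltb at chr17:35193411-35193636 had the largest change in the cluster, although its 0 h and 6 h pieces do not overlap each other. Its summit had 5, 7 and 43 fragments at 0 h, 6 h and 72 h, and its rank was 6.6, 13.3 and 72.0 at these times. The Ltb promoter itself had a region of fold 4.54 at 0 h (5 fragments), none at 6 h and one of fold 12.5 at 72 h (15 fragments). In the Lta flank, chr17:35215179-35215313 was a strong region at 72 h (fold 14.8) with no overlap at 0 h or 6 h.

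**Figure D3:**
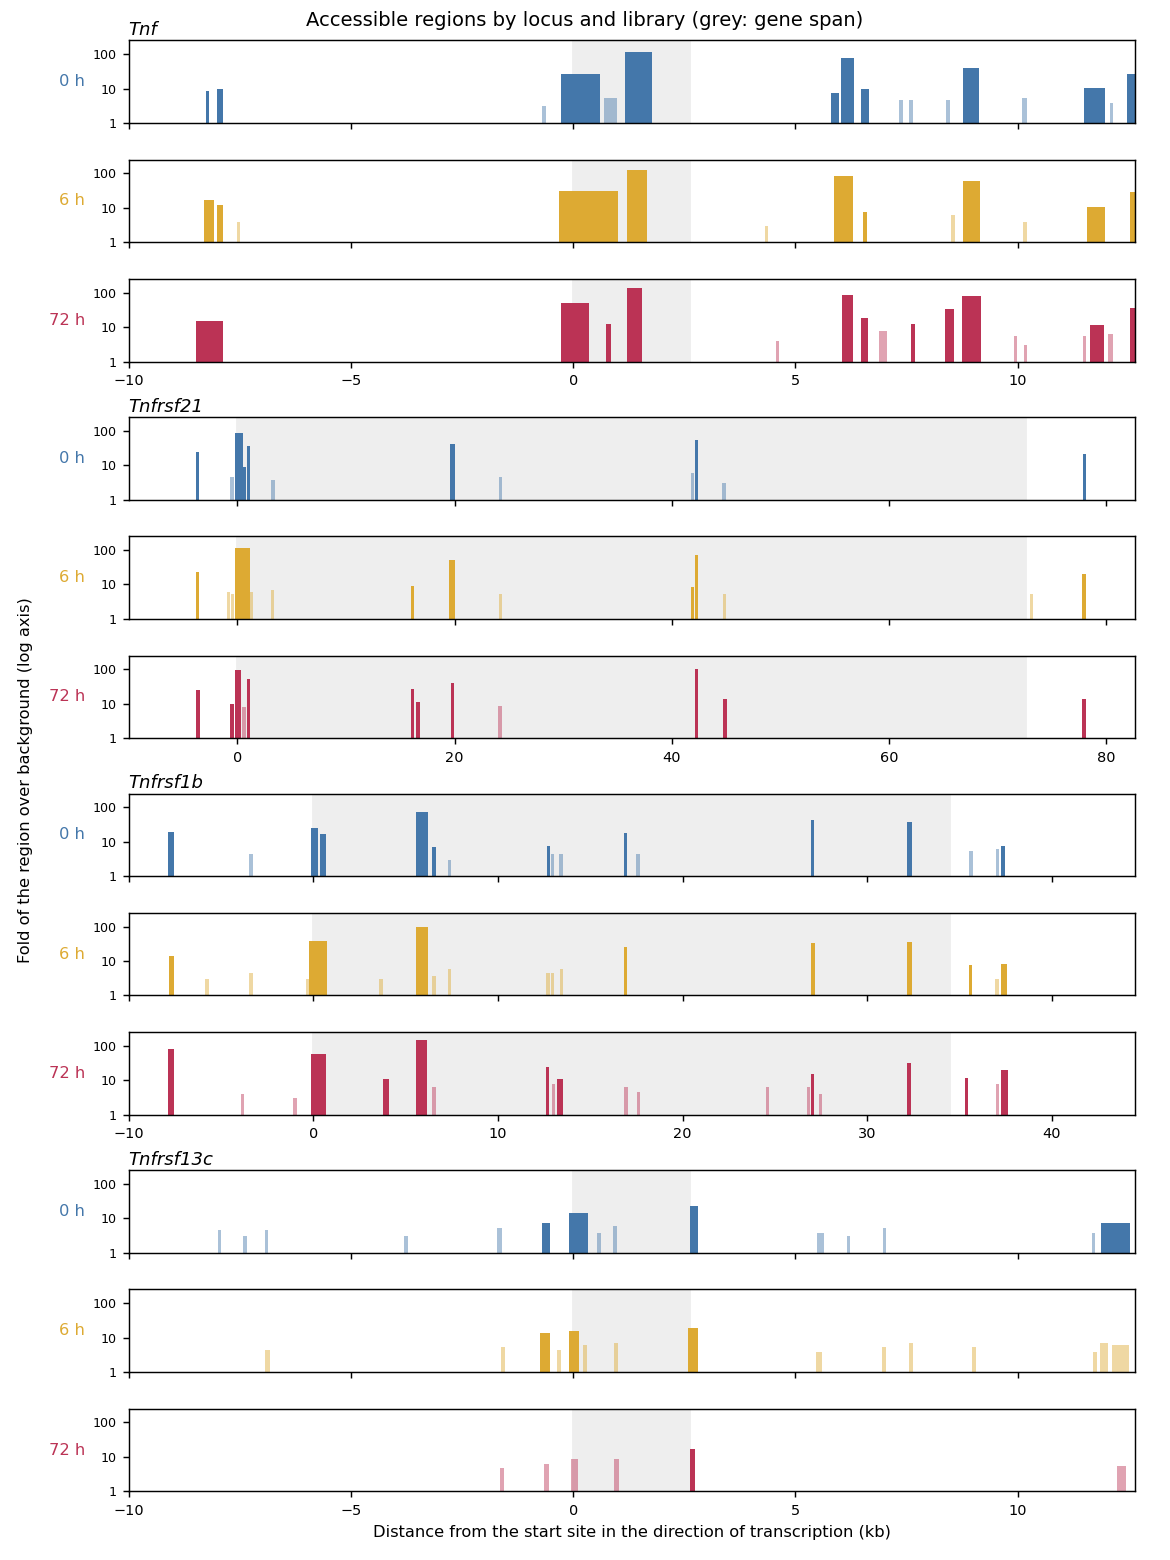
Accessible regions in the loci of Tnf, Tnfrsf21, Tnfrsf1b and Tnfrsf13c at 0 h, 6 h and 72 h, by distance from the start site (x axis, kb) and fold within their own list (y axis, log). Full colour marks strong regions, pale colour weak ones and grey the gene span; narrow regions are widened to be visible. The highest Tnf region is in all rows (folds 116, 128 and 135), and the row of Tnfrsf13c at 72 h holds 6 regions where the row at 0 h holds 15.

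Tnfsf12 (TWEAK, the ligand of Tnfrsf12a), Tnfsf13 (APRIL, a B cell survival factor) and their readthrough Tnfsfm13 share chromosome 11 regions, with 15, 15 and 13 regions in the Tnfsf12 locus at 0 h, 6 h and 72 h and 12, 12 and 10 in the Tnfsf13 locus. The region at the start that Tnfsf12 and Tnfsfm13 share had folds of 43.1, 62.5 and 125. Its rank among the 12616 gene ends with a region in every list was 32.3, 41.8 and 72.1 at 0 h, 6 h and 72 h. Among stretches, the one at this start ranked at 82.1, 86.7 and 94.6. The Tnfsfm13 locus had 17, 16 and 14 regions. The highest region of the superfamily (folds 163, 206 and 217) lies in the Tnfsf13 and Tnfsfm13 loci but at ends of the neighbours Eif4a1 and Senp3. Likewise the highest regions of the Tnfrsf12a locus (159, 179 and 164) lie at ends of Hcfc1r1 and Thoc6, and those of the Tnfrsf26 locus (125, 165 and 149.9) at an end of Cars.

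Tnfsf14 (LIGHT, a ligand of Tnfrsf14 and Ltbr) had 8, 10 and 10 regions at 0 h, 6 h and 72 h. Its promoter was open at each time, with folds of 59.0, 77.6 and 80.4 and gene-end ranks of 44.7, 51.0 and 51.6. A flanking stretch at chr17:57182835-57183241 ranked at 57.3, 57.6 and 92.3 at 0 h, 6 h and 72 h, with 22, 24 and 133 summit fragments. Strong 72 h regions with no 0 h overlap lay at chr17:57185740-57185955 (fold 10.1) and chr17:57196751-57196900 (fold 9.37), and the strong 0 h region at chr17:57199539-57199644 (fold 11.3) had no counterpart at 6 h or 72 h.

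Tnfsf18 (GITR ligand, a T cell costimulator) had 1, 1 and 5 regions. The region within its promoter window appeared at 72 h alone, with a fold of 6.25 and 7 fragments at the summit, and was weak. An internal stretch at chr1:161497405-161497590 was listed at each time, with 6, 6 and 12 fragments. Of these 5 regions at 72 h, 1 was strong.

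Fewer regions were listed for several other ligands. Tnfsf13b (BAFF, a B cell survival factor made by myeloid cells) had 9, 5 and 4 regions, and the 0 h region nearest before its gene, chr8:10004960-10005257 (fold 11.3), had a counterpart at 6 h but none at 72 h. Of the 3 stretches of Tnfsf13b in every list, the one at the start, chr8:10006467-10006853, ranked at 20.8, 9.0 and 46.6 at 0 h, 6 h and 72 h. The locus thus had fewer regions at 72 h than at 0 h while its start ranked higher. Tnfsf10 (TRAIL, which triggers apoptosis) had 7, 7 and 4, and Tnfsf11 (RANKL, the osteoclast differentiation factor) had 5, 6 and 4. Of the 4 Tnfsf11 stretches in every list, 3 ranked at least 10 points lower at 72 h than at 0 h (background 27.7%). Among them, the flanking stretch at chr14:78273671-78273850 ranked lower by 43.7 points. Tnfsf4 (OX40 ligand) had 3, 6 and 1 regions and a gene-end region at 6 h alone.

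Fasl, the ligand that kills through Fas, had 2 regions at 0 h and 0 at 6 h and 72 h. Cd70 had 1 region at 0 h and 0 later, and Tnfsf15 had 1, 2 and 1. Every member had a region in at least 1 list, but the highest at Cd70 had 4 fragments and that at Fasl 8. Cd40lg had 3, 1 and 2 regions, Tnfsf8 8, 7 and 9, and Tnfsf9 11, 11 and 9. Over the 18 ligands, 98, 89 and 84 distinct regions at 0 h, 6 h and 72 h were listed, with 3 loci higher (background 24.1%), 13 lower (background 61.1%) and 2 equal at 72 h against 0 h.

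The 5 death-domain receptors had 54, 58 and 52 regions at 0 h, 6 h and 72 h, and all 5 had a gene-end region at every time. Tnfrsf1a, the main TNF receptor of most cells, had 18, 19 and 20 regions and a promoter fold of 58.2, 49.0 and 86.7 at 0 h, 6 h and 72 h. Its gene-end rank was 44.0, 33.2 and 54.8, the 6 h value being the only one among 31 ranked members that was at least 10 points lower at 6 h than at 0 h (background 3.10%); none was as much higher (background 3.17%). Among stretches, the one at the Tnfrsf1a start ranked at 87.7, 82.4 and 89.6 at 0 h, 6 h and 72 h. Downstream of the start, the stretch chr6:125350210-125351067 ranked at 32.5, 25.6 and 79.6, and chr6:125351375-125351744 at 52.2, 64.6 and 84.4. Of the 10 Tnfrsf1a stretches in every list, 4 ranked at least 10 points higher at 72 h than at 0 h (background 26.2%). Another 2 ranked as much lower (background 27.7%), among them the flanking chr6:125340357-125340781 at 46.2, 47.7 and 18.2.

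Tnfrsf21 (death receptor 6) had 12, 14 and 12 regions and an open promoter with folds of 86.9, 113 and 97.6. Inside the gene, 16132 bp from the start, a strong region of fold 26.5 was listed at 72 h (chr17:43032557-43032823, 33 fragments). The same site had a strong region of fold 9.04 at 6 h (11 fragments) and none at 0 h, and it was the only strong region of the superfamily gained at 6 h. A second new region at 72 h, chr17:43033083-43033321, had a fold of 10.9. Fas had 8, 9 and 9 regions. Its gene-end rank was 52.4, 53.0 and 40.7, and the flanking strong region chr19:34288207-34288403 (fold 13.6 at 0 h) had a counterpart at 6 h but not at 72 h. Among stretches, the one at the Fas start ranked at 90.4, 90.5 and 83.7. Of the 4 Fas stretches in every list, 1 ranked at least 10 points higher at 72 h than at 0 h (background 26.2%). It was the internal chr19:34296604-34296815, at 2.6, 9.0 and 48.3, and 1 other ranked as much lower (background 27.7%). Tnfrsf25 (death receptor 3) had 8, 8 and 5 regions, and Tnfrsf10b (the mouse TRAIL receptor) had 8, 8 and 6, of which 6, 2 and 0 were strong at 0 h, 6 h and 72 h. The limit for a strong region was stricter at the later times, and a Tnfrsf10b summit of 8 fragments counted as strong at 0 h but as weak at 6 h and 72 h. The highest summit of the locus had 9, 12 and 8 fragments.

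The 15 other signalling receptors had 155, 146 and 125 regions at 0 h, 6 h and 72 h, and 12 of their loci had fewer at 72 h than at 0 h (background 61.1%), 1 had more (background 24.1%) and 2 had equal numbers. The 1 with more was Tnfrsf1b, TNF receptor 2, with 17, 18 and 20 regions. Its highest region, inside the gene, had 95, 125 and 190 fragments at 0 h, 6 h and 72 h. The stretch of that region ranked at 91.1, 92.7 and 96.5, a change of under 10 points. The promoter region of Tnfrsf1b had folds of 25.7, 37.7 and 58.5, and its gene-end rank was 19.8, 26.1 and 39.5. Of the 12 Tnfrsf1b stretches in every list, 7 ranked at least 10 points higher at 72 h than at 0 h (background 26.2%). Another 2 ranked as much lower (background 27.7%). The flanking stretch chr4:145254414-145254749 before the start ranked at 60.1, 47.7 and 88.3. The internal stretches chr4:145229858-145230045 (57.3, 66.5 and 18.2) and chr4:145219723-145219907 (81.7, 73.7 and 48.3) went the other way. Strong 72 h regions with no 0 h overlap lay at chr4:145211408-145211585 (fold 11.7) and chr4:145242780-145243113 (fold 10.9).

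Tnfrsf8 (CD30), the next gene on chromosome 4, had 19, 22 and 18 regions. Of its 13 stretches in every list, 5 ranked at least 10 points higher at 72 h than at 0 h (background 26.2%). Another 5 ranked as much lower (background 27.7%). The flank that faces Tnfrsf1b held the largest rise in rank of the locus, at chr4:145257258-145257616 with 2.6, 9.0 and 60.2 at 0 h, 6 h and 72 h. Beside it, chr4:145257718-145258418 ranked at 43.9, 49.6 and 91.9, and its fold of 101 was the highest of the locus at 72 h.

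The receptors of the B cell survival factors were among those with fewer regions. Tnfrsf13c (the BAFF receptor) had 15, 15 and 6 regions, of which 4, 3 and 1 were strong. Of the 18 separate stretches in its locus, 6 were in every list, 4 in the 0 h and 6 h lists, 5 in the 0 h list alone and 3 in the 6 h list alone. None of its strong 0 h regions was without overlap at 72 h, so the regions that dropped out were weak ones. Tnfrsf17 (BCMA) had 8, 4 and 4 regions, the highest of them at an end of Snx29, and Tnfrsf13b (TACI) had 15, 18 and 13. Of the 12 Tnfrsf13b stretches in every list, 2 ranked at least 10 points higher at 72 h than at 0 h (background 26.2%). Another 6 ranked as much lower (background 27.7%). B cell marker loci moved the same way, with 24 regions at 72 h against 48 at 0 h, and their part in these counts was not tested.

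Among the costimulatory receptors, Tnfrsf4 (OX40) had 5, 3 and 2 regions, and 4, 3 and 2 of them were shared with Tnfrsf18 (GITR), which had 10, 8 and 10. Tnfrsf9 (4-1BB) had 18, 13 and 13. Cd40, through which T cells activate antigen-presenting cells, had 5, 3 and 3 regions. All 3 of its stretches in every list ranked at least 10 points lower at 72 h than at 0 h (background 27.7%). The change was −39.8 points at chr2:165074595-165074760, while those of the others, −12.6 and −12.3, lay close to the limit of 10. These rest on few fragments. The stretch with −12.6 had summits of 17, 26 and 12 at 0 h, 6 h and 72 h, and the one with −12.3 had 8 at 0 h. Cd27 had 7, 8 and 6 and a strong 72 h region at chr6:125243728-125243985 (fold 23.4) with no overlap at 0 h or 6 h. Tnfrsf14 (HVEM) had 15, 13 and 13 regions. Ltbr, the lymphotoxin-β receptor, had 6, 7 and 4 regions and a promoter fold of 97.5, 107 and 107. Tnfrsf12a (the TWEAK receptor) had 10, 7 and 7, Tnfrsf11a (RANK) 5, 5 and 5, and Tnfrsf19 4, 5 and 3.

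The last 4 receptors are the TRAIL decoys Tnfrsf22 and Tnfrsf23, the less studied Tnfrsf26 beside them on chromosome 7, and Tnfrsf11b (osteoprotegerin, the soluble decoy for RANKL). Of the 4 classes this last one alone had more distinct regions at 72 h, 31 against 27 at 0 h, with 28 at 6 h. Tnfrsf22 had 8, 12 and 13 regions, Tnfrsf23 had 7, 5 and 9, Tnfrsf26 had 17 at each time and Tnfrsf11b had 1, 2 and 1. In the gap between Tnfrsf26 and Tnfrsf22, the stretch chr7:143629585-143629861 had summits of 4, 8 and 68 fragments at 0 h, 6 h and 72 h. Its rank was 2.6, 17.7 and 81.4 at 0 h, 6 h and 72 h, the largest change of all 198 member stretches in every list. Next to it, chr7:143631572-143631841 had 13, 19 and 70 fragments and ranked at 38.7, 49.6 and 82.0. Inside Tnfrsf22, chr7:143636425-143637178 had 10, 20 and 79 fragments and ranked at 28.9, 51.5 and 84.1. At all 3 stretches the 6 h rank lay between those of 0 h and 72 h. The internal stretch chr7:143644029-143644191 of Tnfrsf22 ranked at 54.0, 29.2 and 13.5, so regions of 1 gene moved in both directions. Tnfrsf23 had an open start with folds of 61.2, 76.9 and 163. Its gene-end rank was 46.5, 50.5 and 84.5, while the stretch at this start ranked at 88.5, 89.8 and 97.3 among stretches. The mature neutrophil marker loci also had more regions at 72 h. The macrophage marker loci had more in sum, with 2 higher and 2 lower, Adgre1 at 42 against 13 and Marco at 0 against 4. The part of these marker loci in the values was not tested.

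**Figure D4:**
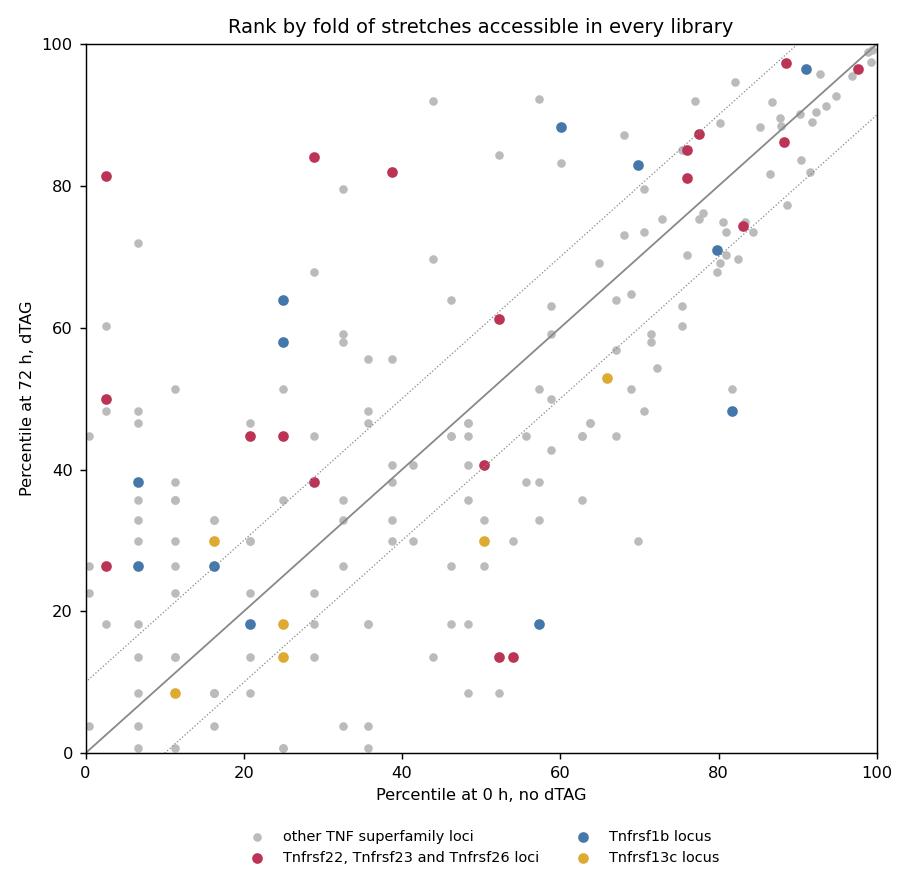
Percentile by fold of the 198 stretches of TNF superfamily loci that have a region in every list, at 0 h (x axis) and at 72 h (y axis), among 75396 such stretches of all coding loci. The solid line marks equal ranks and the dotted lines 10 points; 58 stretches lie above the upper dotted line and 58 below the lower one, and the point farthest above it, at 81.4 against 2.6, is a red one between Tnfrsf26 and Tnfrsf22.

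Across the superfamily, movement in rank went both ways. Of the 198 stretches, 58 ranked at least 10 points higher at 72 h than at 0 h (29.3%, 95% interval 23.1% to 36.2%, background 26.2%) and 58 at least 10 points lower (29.3%, background 27.7%). At 6 h, 38 were higher (19.2%, background 14.7%) and 36 lower (18.2%, background 14.7%). The median member stretch ranked at 48.3, 46.6 and 46.6 at 0 h, 6 h and 72 h. In all, the loci held 423 separate stretches, of which 198 were in every list (46.8%, all coding loci 43.7%), 44 in the 0 h and 6 h lists (10.4%, all coding loci 13.7%) and 54 in the 72 h list alone (12.8%, all coding loci 10.6%).

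Gene ends were compared by rank for the 31 members with an end region in every list. Their median percentile was 21.9, 22.9 and 34.1 at 0 h, 6 h and 72 h, below the middle of all ranked genes. The median of the members' own changes at 72 h was −0.48 points, with 15 higher and 16 lower than at 0 h, where that of all ranked genes was 0.42 points. At 72 h, 7 ranked at least 10 points higher than at 0 h (22.6%, 9.59% to 41.1%, background 13.9%): Tnfsf12, Tnfrsf23, Tnfrsf1b, Tnfrsf26, Lta, Tnfsf8 and Tnfrsf1a. Another 4 ranked as much lower (12.9%, background 13.7%): Tnf, Tnfrsf12a, Tnfrsf14 and Fas. The listed fall of Tnf, 34.1 at 72 h against 81.2 at 0 h, comes with the edge of the 1 kb window. Its highest region started at position 35200242 at 0 h and at 35200460 at 72 h and so left the window, while the rank change was 13.9 points upward with a 500 bp window and −5.2 with 2 kb. For Tnfrsf14 the change of −15.6 points turned to 23.5 with 500 bp. Lta and Tnf share 1 end region at 72 h. The region ranked for Lta, with folds of 26.5, 31.6 and 49.2, is the one at the Tnf start. The promoter window of Lta had no region at any time, and Lta was not ranked with a 500 bp window.

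**Figure D5:**
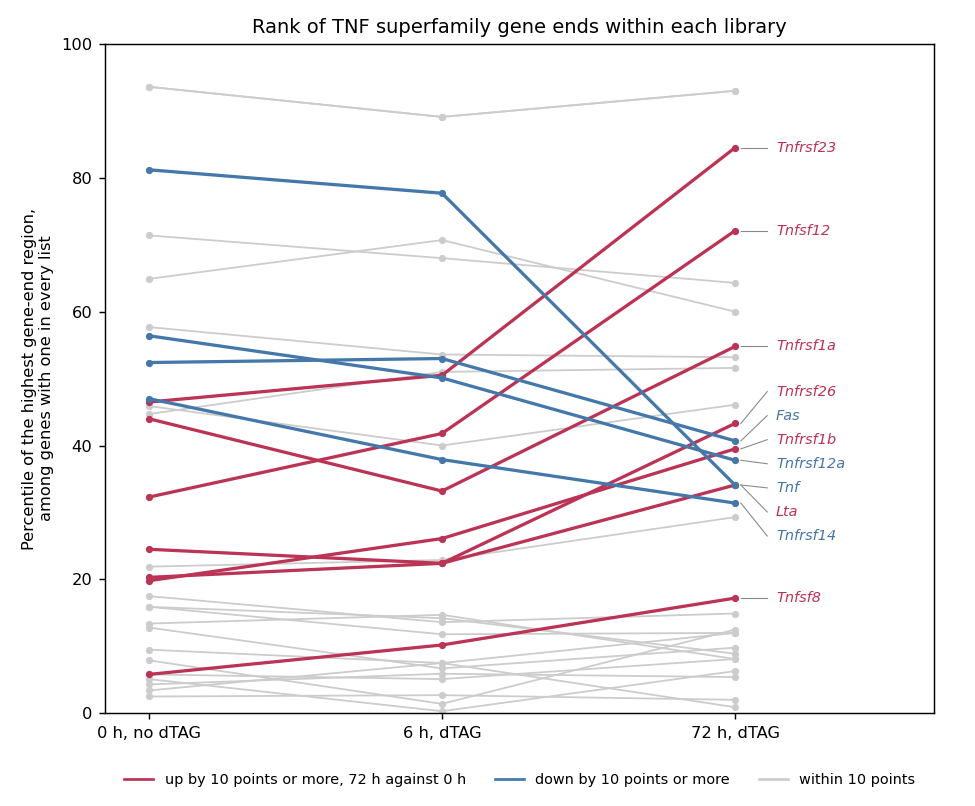
Percentile of the highest region within 1 kb of a gene end for 31 TNF superfamily members at 0 h, 6 h and 72 h, among 12616 genes with such a region in every list. Red lines rank at least 10 points higher at 72 h than at 0 h (7 members) and blue lines at least 10 points lower (4 members); the steep Tnf line, 34.1 against 81.2, follows from its highest region leaving the window.

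End regions at 72 h were new for Tnfrsf9 and Tnfsf18, 2 of the 9 members without one at 0 h (background 3.30%), and absent for Cd40 and Tnfrsf11b, 2 of the 33 with one at 0 h (background 9.67%). At 6 h 1 was new, at Tnfsf4 (background 6.05%), and 1 absent, at Tnfrsf11b (background 4.00%). The sequence table gave 36 promoters for 32 of the 42 members. In the windows of 250 bases before and 50 after the start, 22, 19 and 21 of the 32 had a region at 0 h, 6 h and 72 h, that is 68.8%, 59.4% and 65.6%, where 56.0%, 56.0% and 53.1% of all coding genes had one. Ltb, Tnfrsf25 and Tnfrsf9 lacked theirs at 6 h (3 of 22, 13.6%, 95% interval 2.91% to 34.9%, background 2.38%), Tnfrsf19 and Tnfrsf25 at 72 h (2 of 22, background 6.31%), and Tnfsf18 had a new one at 72 h (1 of 10, background 1.45%). None of those 10 had a new one at 6 h (background 2.99%). The 0 h promoter regions of Ltb, Tnfrsf25, Tnfrsf9 and Tnfrsf19 had 3 to 5 summit fragments, close to the lowest that was listed.

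The 250 bases before each start were searched on both strands for 9 motifs: the NF-κB motif, the AP-1 motif TGANTCA, the PU.1 motif GAGGAAGT, the ETS motif CCGGAAG, the C/EBP motif TTGCNNNAA, the IRF/ISRE motif, the CCAAT box, the TATA box spelled TATAAA and the GC box spelled GGGCGG. The NF-κB motif was GGGA, then any base, then TTTCC, and the IRF/ISRE motif was GAAA, then any 2 bases, then GAAA. NF-κB was found in 1 of the 36 member promoters (2.78%, 0.372% of all 21263 promoters), AP-1 in 6 (16.7%, 6.13% of all) and IRF/ISRE in 4 (11.1%, 2.96% of all). The CCAAT box was found in 5 (13.9%, 35.4% of all), the TATA box in 6 (16.7%, 11.6% of all) and the GC box in 16 (44.4%, 42.6% of all). ETS was found in 3 (8.33%, 8.98% of all), and PU.1 and C/EBP in 1 each (2.78%, with 2.23% and 7.59% of all). The AP-1 matches were at Fas, Tnfrsf8, Tnfrsf9, Tnfsf13, Tnfsf13b and Tnfsf14, and the IRF/ISRE matches at Tnfrsf14, Tnfrsf17, Tnfrsf1b and Tnfsf13b. A match is a run of letters and not a bound site.

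Genes that act downstream or beside the superfamily, 42 adaptors, kinases, regulators and related receptors, had 510, 516 and 528 regions at 0 h, 6 h and 72 h. At 72 h 24 of these loci had more regions than at 0 h (background 24.1%) and 15 had fewer (background 61.1%), with a median difference of 1 region. By at least 1.5 times and 3 regions, 5 of the 42 had more (background 3.65%): Cflar (c-FLIP, the inhibitor of caspase-8) with 18, 18 and 27 regions, Traf2 with 7, 10 and 13, Tab2 with 8, 8 and 12, Ripk1 with 6, 9 and 9 and Traf6 with 5, 5 and 8. The 4 with as many fewer (background 20.2%) were Ngfr (10, 6 and 3), Edar (6, 4 and 1), Eda (8, 8 and 5) and Tab1 (9, 7 and 5). Traf2, Traf6, Ripk1, Tab2 and Tab1 all encode adaptors or kinases that carry receptor signals to NF-κB, so such genes were called in both directions. Ngfr and Edar encode receptors and Eda the ligand of Edar. More regions in a locus did not always go with a higher gene-end rank. That of Cflar was 71.4, 88.6 and 16.7 at 0 h, 6 h and 72 h. Those of Traf2, Tab2, Ripk1 and Traf6 were 95.6, 67.7, 79.2 and 56.4 at 0 h. At 72 h they were 94.4, 67.9, 81.5 and 64.3.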

How the data were processed

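The members and gene lists were chosen with earlier results of these data known. The authors deposited 1 list of accessible regions per library, called separately for each. Per the submitters' processing notes, the genome build was mm10 and the tools included BWA 0.7.17 and MACS2 2.2.7, besides bedtools 2.30.0, HOMER, ChIPseeker, limma and edgeR, with MultiQC 1.10.1 and FastQC 0.11.8. Options, duplicate handling and any shift of read ends: not given in the sources used here. In the deposited lists every region has a position, a fold (a ratio of its summit to the background of the caller), a −log10 q-value and a −log10 p-value, all from the authors' caller; the score column was not used. Folds lay on an even grid in 100% of lines (tolerance 0.01 of a step), which gives the fragments at each summit and a background of 0.323, 0.327 and 0.281 fragments at 0 h, 6 h and 72 h; read totals were not used.

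Regions on chromosomes 1 to 19, X and Y were assigned to gene spans of a RefSeq annotation of GRCm38.p6 without strand, using Python 3.11.15, pandas 2.3.3 and SciPy 1.17.1. Regions of different lists matched when they shared at least 1 bp. For shares, 95% intervals are exact (Clopper-Pearson); for ratios of counts they are exact binomial ones that treat the counts as independent. Stretches are joined overlapping regions of the 3 lists, and ranks are percentiles by fold within a library over 1 fixed set. The counting rules were tested on made-up regions. Named members are those that met the size rule, that gained or lost a strong or an end region, or whose locus ranked highest in regions or fold; stretches were named for their change in rank, after their values were seen. Alternatives changed the region filter, flank, overlap, merging and windows.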

Additional observations from a re-analysis of the deposited data

How the results depend on the processing

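No paired analysis was possible because each time point had 1 library, and no replicate could be left out. Of 76 values of the main comparisons under other settings, 37 stayed within the limits of the stated value and 39 moved. A reversal could not be recorded among them, since counts and shares have no direction and both main ratio intervals include 1. A count that stayed can cover other members. End regions gained at 72 h were at Tnfrsf9 and Tnfsf18 with 1 kb, and at Cd40lg and Tnfsf18 with 500 bp. Distinct regions at 72 h over 0 h were 0.874, but 1.16 with regions of fold 10 or more, 1.07 with −log10 q of 10 or more and 1.06 with lists cut to equal length; all coding loci moved alike (1.12, 1.03 and 1.05). Loci with more regions at 72 h numbered 5 with fold 10 or more, 0 without flanks and 1 with 25 kb flanks. Loci with fewer numbered 0 with fold 10 or more, 2 with −log10 q of 10 or more, 3 with equal lists and 2 without flanks. Loci with more at 6 h numbered 0 with fold 10 or more, with −log10 q of 10 or more, without flanks and with regions merged within 150 bp, and 1 with equal lists and with 25 kb flanks. Loci with fewer at 6 h numbered 0 with fold 10 or more, 1 with −log10 q of 10 or more, without flanks and with merging, 4 with equal lists and 5 with 25 kb flanks. With strong set at −log10 q of 10 or more, 93.6% of strong 0 h regions were overlapped at 72 h, 10 were lost at 72 h and 2 at 6 h. With strong set at fold 10 or more, the share was 97.6%, 3 were lost at 72 h and 1 at 6 h, and 0 were gained at 6 h. End regions gained at 6 h numbered 2 with fold 10 or more and 0 in promoter windows, and those lost at 6 h 2 with 500 bp, 3 with 2 kb and 3 in promoter windows. End regions gained at 72 h numbered 1 with 2 kb, with fold 10 or more and in promoter windows, and those lost 4 with 500 bp and 1 with fold 10 or more. The end rank of Tnf changed by 13.9 points with 500 bp and −5.2 with 2 kb, against −47.1 with 1 kb, as its highest region crosses the window edge, and that of Tnfrsf14 by 23.5 points with 500 bp, against −15.6. For the other moved values the cause was not tested. Joining regions up to 100 bp apart gave 55 stretches up and 55 down at 72 h, against 58 each. Rank windows, promoter windows and stretch ranks were chosen after seeing the data. Folds near 3 rest on 3 fragments, so weak regions limit every count of regions.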
